A study of Mus musculus with 21 samples.

Results

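Glycolysis, pyruvate handling and the pentose phosphate pathway were described in mouse glioma stem-like cell lines through 39 genes, chosen by symbol as 19 glycolysis, 13 pyruvate handling and 7 pentose phosphate genes out of 54532 genes in the deposited table. The lines are cultures from brain tumours of genetically engineered mice, grown without attachment in stem cell medium with EGF and bFGF at 5% oxygen. The IDH1 mutant lines were PIC144-1, PIC144-3, PIC496-3 and PIC496-4, and the IDH1 WT lines were PC134-0, PC308-1 and PC326-1, with no treatment in either genotype. Each line gave 3 libraries of mRNA sequencing, called biological replicates in the labels, so 21 libraries were measured. The labels name neither the IDH1 change, nor its promoter, nor other tumour alleles, nor the age or sex of the mice. They also do not say whether lines that share a number, 144 or 496, came from the same animal. The low oxygen of the cultures was shared by both genotypes and applies to every value below.

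Glycolysis splits glucose into pyruvate in the cytosol. Glucose enters through GLUT transporters, is trapped by hexokinase, and is committed to the pathway by phosphofructokinase. Pyruvate is either reduced to lactate by lactate dehydrogenase and exported through monocarboxylate transporters, or carried into mitochondria and oxidised by the pyruvate dehydrogenase complex, which pyruvate dehydrogenase kinases switch off. The pentose phosphate pathway branches off at glucose 6-phosphate and makes NADPH and ribose 5-phosphate. IDH1 itself makes NADPH in the cytosol when it is not mutated, while its tumour mutants use NADPH to make 2-hydroxyglutarate. Several of these genes are induced at low oxygen through HIF factors, whose degradation is started by enzymes that use 2-oxoglutarate.

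Levels are deposited FPKM, fragment numbers divided by the length of the gene and the size of the library, and the value of a line is the mean of its 3 libraries. The 39 symbols had 40 entries in the table, because Aldoa was listed at its own locus and again as a separate entry. That entry lies upstream on the same strand and ends just before the Aldoa locus. All 21 libraries held 15011668 to 21966351 fragments over all genes. The library size used in the FPKM was 1.02 to 1.05 times that total in PIC144-1, PC134-0 and PC326-1. It was 0.957 to 1.00 times that total in the other lines, for a reason not given. Overlap of line values was judged on the deposited FPKM only, so narrow gaps may depend on this scaling. Pdk4 failed the filter on low values, so 39 entries were tested. A genotype belongs to a line, so n is 4 IDH1 mutant and 3 IDH1 WT lines, and differences are on the log2(FPKM + 0.5) scale, IDH1 mutant minus IDH1 WT.

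The label of glioma stem-like cells was set against 12 markers of such cells, all of which passed the filter on low values. Levels differed widely between these markers. Olig2, an oligodendrocyte lineage factor, lay between 159.5 and 449 FPKM in the libraries and Sox2, a neural stem cell factor, between 79.2 and 260.2 FPKM. Prom1, which encodes the stem cell surface protein CD133, had 0.0948, 4.56, 0.147 and 1.05 FPKM in PIC144-1, PIC144-3, PIC496-3 and PIC496-4, against 1.69, 0.999 and 2.74 FPKM in PC134-0, PC308-1 and PC326-1. Pax6 lay at 0.259 to 2.03 FPKM in IDH1 mutant lines and 1.38 to 3.11 FPKM in IDH1 WT lines, so these markers were near 0 in some IDH1 mutant lines. The summed FPKM of each of 7 marker lists of other cells was 0.0227 to 11.2 in IDH1 mutant lines and 0.105 to 4.84 in IDH1 WT lines. The highest sum belonged to pericyte and fibroblast markers in PIC144-1. The sums did not overlap for microglia and macrophage markers, at 0.0748 to 0.216 in IDH1 mutant and 0.282 to 1.37 in IDH1 WT lines, or for T cell markers, at 0.536 to 0.764 in IDH1 mutant and 0.981 to 1.42 in IDH1 WT lines. The microglia sum was carried mainly by P2ry12, at 0.0230 to 0.160 FPKM in IDH1 mutant and 0.226 to 1.36 FPKM in IDH1 WT lines, while no other gene of that list exceeded 0.123 FPKM in any library. C1qa, Tyrobp, Cldn5, Cd3d and Cd3g had 0 FPKM in all 21 libraries.

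The lower trunk of glycolysis was expressed at high levels in both genotypes, and no gene of the 3 pathways passed the genotype test. At a Benjamini-Hochberg adjusted p under 0.05 from limma over all tested genes, 0 of 39 entries were called, where 16 of 13379 genes (0.120%) were called. The 8 entries with an unadjusted limma p under 0.05 were 4 higher in the IDH1 mutant lines (Pgd, Pdha1, Slc16a1 and Pdk1) and 4 lower (Ldhb, Slc16a3, Pfkp and Slc2a3). Each direction is 10.3% of the entries, against 6.09% of all tested genes higher and 6.70% lower. Line values did not overlap between genotypes for 5 entries that were higher in the IDH1 mutant lines (Pgd, Pdha1, Slc16a1, G6pdx and Pfkl), or 12.8% of the entries against 6.82% of all tested genes. They did not overlap for 2 entries that were lower (Ldhb and Slc16a3), or 5.13% against 6.43%. The median difference was 0.19 over the 39 entries, with 23 above 0 and 16 below, and 0.01 over all tested genes, of which 50.8% were above 0.

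A fit over the 21 libraries with the line as a random effect, which shares a common correlation between libraries of a line over all genes, called 7 entries at an adjusted p under 0.05. They were Pgd, Pdha1, Slc16a1 and Pdk1 on the higher side and Ldhb, Slc16a3 and Pfkp on the lower side. That fit called 552 genes in all (4.13%), so the 7 entries were 17.9% of those tested. The 3 libraries of a line are not independent of each other, and that fit allows for this only through the correlation common to all genes. The fit over line means is therefore taken as the result here.

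**Figure D1:**
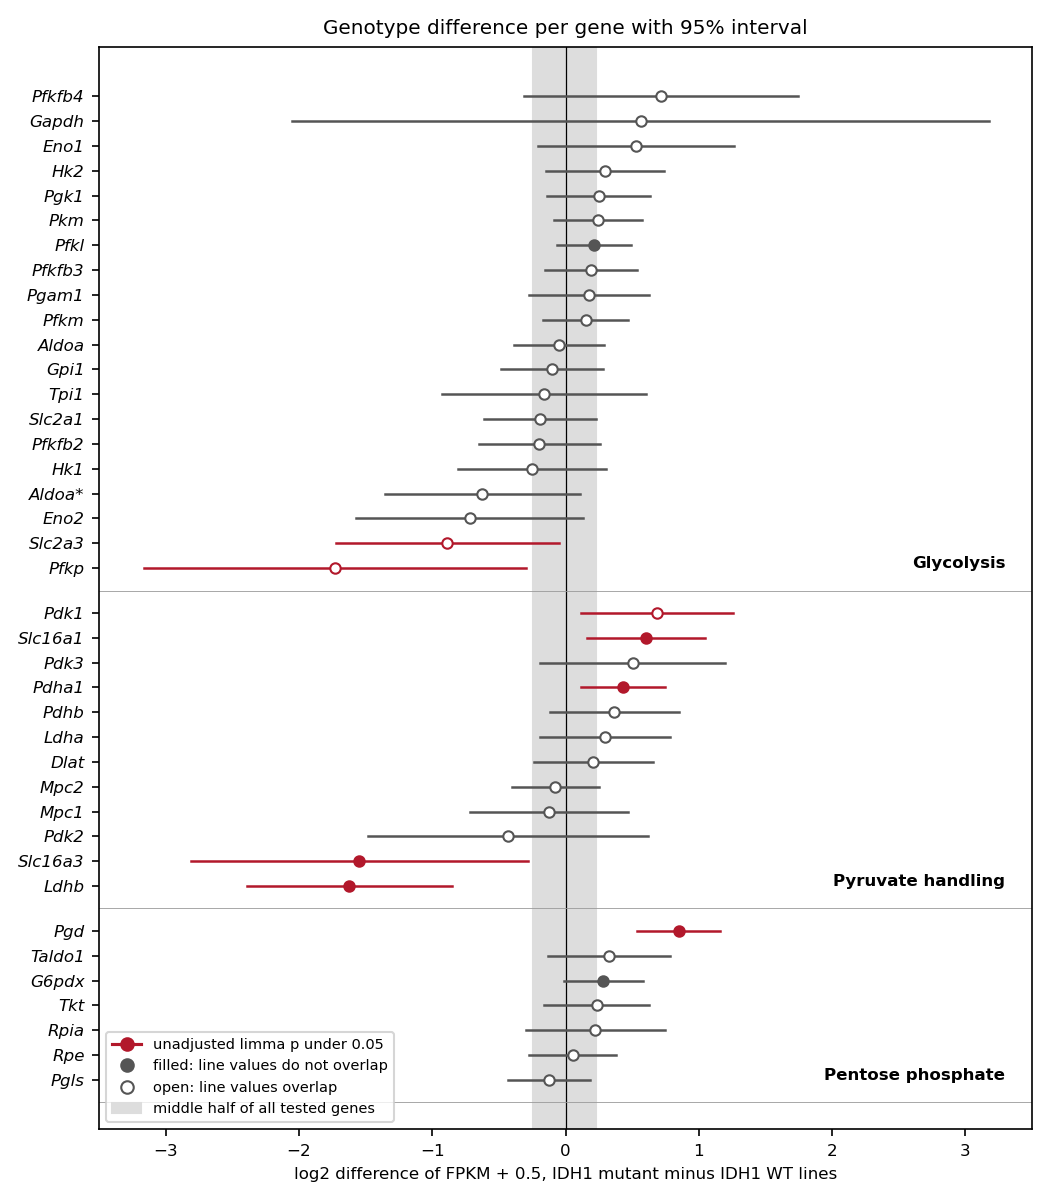
The x axis gives the log2 difference of FPKM + 0.5, IDH1 mutant minus IDH1 WT lines, and each row is a tested gene with its 95% limma interval, red where the unadjusted p was under 0.05 and filled where line values did not overlap. Pgd, Pdha1, Slc16a1, Slc16a3 and Ldhb are both red and filled, 0 genes passed the adjusted test, and Aldoa* is the separate upstream Aldoa entry.

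Glucose entry and trapping came first. Slc2a1, which encodes GLUT1, the general glucose transporter, had 155, 216, 149 and 183 FPKM in PIC144-1, PIC144-3, PIC496-3 and PIC496-4, against 204, 227 and 169.6 FPKM in PC134-0, PC308-1 and PC326-1. These overlapped, with a log2 difference of -0.19 and a 95% interval of -0.61 to 0.23. Slc2a3 encodes GLUT3, the high-affinity transporter known from neurons. It had 61.9, 113, 81.3 and 39.6 FPKM in IDH1 mutant lines in the same order, against 134, 167.5 and 93.3 FPKM in IDH1 WT lines. PIC144-3 lay above PC326-1, so the genotypes overlapped. The log2 difference of Slc2a3 was -0.89 (SE 0.360), with limma p = 0.0400 before and 0.376 after adjustment. Among the 2 transporter genes, Slc2a3 made up 28.9% ± 7.99 of the summed FPKM in IDH1 mutant lines (SD, n = 4) and 39.1% ± 3.63 in IDH1 WT lines (SD, n = 3). The lowest share was 17.8% in PIC496-4.

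Hk1 and Hk2 encode hexokinases I and II, both bound to mitochondria in many cells, and Hk2 is the form that low oxygen and growth factors are known to induce. Hk1 was at 37.1 and 33.5 FPKM in PIC144-1 and PIC496-4 and at 61.4 and 59.4 FPKM in PIC144-3 and PIC496-3, against 53.3 to 57.6 FPKM in IDH1 WT lines. Hk2 was at 81.5 and 75.5 FPKM in PIC144-1 and PIC496-4 and at 62.8 and 63.3 FPKM in PIC144-3 and PIC496-3, against 48.6, 74.97 and 51.0 FPKM in PC134-0, PC308-1 and PC326-1. PIC144-1 and PIC496-4 were the lowest lines in Hk1 and, with PC308-1, the highest in Hk2. Hk2 held 68.8% and 69.3% of the hexokinase FPKM in these lines, 50.6% and 51.6% in PIC144-3 and PIC496-3, and 47.1% to 56.5% in the IDH1 WT lines. The summed FPKM of both genes varied less, from 109 to 124 in IDH1 mutant lines and 103 to 133 in IDH1 WT lines. Gpi1, glucose 6-phosphate isomerase, had a log2 difference of -0.10 and overlapping lines.

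The largest fitted difference among the 39 tested entries belonged to a phosphofructokinase gene. Pfkp, the platelet type, had 13.7, 17.2, 16.7 and 4.34 FPKM in PIC144-1, PIC144-3, PIC496-3 and PIC496-4, against 72.9, 16.1 and 52.1 FPKM in PC134-0, PC308-1 and PC326-1. PC134-0 and PC326-1 stood above all other lines, while PC308-1 lay within the IDH1 mutant range. The log2 difference of Pfkp was -1.73 (SE 0.618), or 3.32-fold lower in IDH1 mutant lines, with limma p = 0.0240 before and 0.349 after adjustment. Pfkl, the liver type and the most abundant of the 3 genes, had 103, 115, 118 and 115 FPKM in IDH1 mutant lines, against 99.8, 91.3 and 100.3 FPKM in IDH1 WT lines. These did not overlap, with a log2 difference of 0.21 and an interval of -0.06 to 0.49. Pfkm, the muscle type, overlapped between genotypes at 41.7 to 54.9 FPKM in IDH1 mutant and 40.2 to 44.1 FPKM in IDH1 WT lines.

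As a share of the phosphofructokinase FPKM, Pfkp was 7.97%, 9.83%, 9.49% and 2.59% in PIC144-1, PIC144-3, PIC496-3 and PIC496-4, against 33.6%, 10.8% and 27.0% in PC134-0, PC308-1 and PC326-1. The summed FPKM of the 3 genes was 168 to 176 in IDH1 mutant lines and 217, 149 and 193 in PC134-0, PC308-1 and PC326-1. Both the Pfkp share and the sum were higher in PC134-0 and PC326-1 than in PC308-1, a line of the same genotype.

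The PFKFB enzymes make and break fructose 2,6-bisphosphate, the activator of phosphofructokinase. Pfkfb3, the form with the strongest kinase activity, carried 94.8% to 98.4% of the PFKFB FPKM in IDH1 mutant lines and 96.4% to 97.5% in IDH1 WT lines. It had 47.05, 61.9, 47.0 and 46.4 FPKM in IDH1 mutant lines and 42.7, 48.4 and 41.3 FPKM in IDH1 WT lines. Pfkfb4 was low but variable, at 1.64, 0.391, 0.773 and 2.08 FPKM in PIC144-1, PIC144-3, PIC496-3 and PIC496-4, against 0.223, 1.07 and 0.289 FPKM in PC134-0, PC308-1 and PC326-1. It rested on 15 to 209 fragments per library. Pfkfb2 lay under 1 FPKM in every line.

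Most genes of the trunk from aldolase to pyruvate kinase were abundant, Gapdh being the exception. Aldoa (aldolase A), Pgk1 (phosphoglycerate kinase), Pgam1 (phosphoglycerate mutase), Eno1 (enolase 1) and Pkm (pyruvate kinase M) reached 632 to 1885 FPKM in IDH1 mutant lines and 612 to 1702 FPKM in IDH1 WT lines. Aldoa differed by -0.05 on the log2 scale with an interval of -0.39 to 0.29, and without PIC144-1 the difference was 0.04. Pgk1 had 1405, 1764, 1862 and 1885 FPKM in IDH1 mutant lines, against 1297, 1702 and 1363 FPKM in IDH1 WT lines, a log2 difference of 0.25 with overlapping lines. Pkm differed by 0.25 and Pgam1 by 0.17, both with intervals that include 0. The other Aldoa entry had 4.07 to 5.24 FPKM in IDH1 mutant lines and 9.80, 4.02 and 10.8 FPKM in PC134-0, PC308-1 and PC326-1.

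Tpi1, triose phosphate isomerase, had 513, 1377, 723 and 594 FPKM in PIC144-1, PIC144-3, PIC496-3 and PIC496-4, against 976, 809 and 724 FPKM in PC134-0, PC308-1 and PC326-1. The IDH1 mutant lines held both the lowest and the highest value, and the log2 difference was -0.16, or 0.02 without PIC144-1. Eno1 had 632, 1441, 1158 and 1152 FPKM in IDH1 mutant lines, against 612, 1028 and 612 FPKM in IDH1 WT lines. PIC144-1, PC134-0 and PC326-1 were close to each other and below the other 4 lines, and the log2 difference of 0.53 had an interval of -0.20 to 1.26. Eno2, the neuronal enolase, had 31.8, 27.3, 15.4 and 11.2 FPKM in IDH1 mutant lines, against 42.6, 27.9 and 29.4 FPKM in IDH1 WT lines, a log2 difference of -0.72 (limma p = 0.0871 before and 0.438 after adjustment).

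Several of these genes have near-identical copies in the mouse genome, and no label or header says how fragments shared between copies were counted. The table lists Eno1b, a copy of Eno1, at 369, 442, 500.0 and 509 FPKM in IDH1 mutant lines, against 265, 381 and 260.4 FPKM in IDH1 WT lines. These overlapped, with a log2 difference of 0.60 and an interval of 0.16 to 1.05 (limma p = 0.0146 before and 0.319 after adjustment). Eno1b was 23.5% to 36.8% of the summed Eno1 and Eno1b FPKM in IDH1 mutant lines and 27.0% to 30.2% in IDH1 WT lines. Pgam1-ps2, Tpi-rs11, Pgk1-rs7 and Ldha-ps2, copies of Pgam1, Tpi1, Pgk1 and Ldha, each lay under 50 FPKM in every line. The 5 copies were picked by symbol after the values of the table had been seen. The levels of Eno1, Pgam1, Tpi1, Pgk1, Ldha and Gapdh are uncertain to that extent.

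Gapdh, glyceraldehyde 3-phosphate dehydrogenase, stood apart from every neighbouring step. In the 3 libraries of each line it had 149, 56.8 and 10.5 FPKM in PIC144-1, 129, 9.17 and 104 FPKM in PIC144-3, 5.84, 15.8 and 6.88 FPKM in PIC496-3, and 22.6, 4.90 and 118 FPKM in PIC496-4. In the IDH1 WT lines it had 86.5, 7.74 and 63.8 FPKM in PC134-0, 3.33, 3.45 and 5.10 FPKM in PC308-1, and 23.9, 135 and 114 FPKM in PC326-1. The highest library was 24.1 times the lowest in PIC496-4 and 1.53 times the lowest in PC308-1. Gapdh had the widest spread within lines of the 5080 genes with a mean of at least 10 FPKM, at an SD of 1.64 on the log2 scale, where the median gene had 0.0995 and the other tested entries of the 3 pathways had 0.0360 to 0.241.

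Its log2 difference between genotypes was 0.56 (SE 1.13), with an interval of -2.05 to 3.18, and -0.76 without PC308-1. The 6 other entries of the table whose description names glyceraldehyde 3-phosphate dehydrogenase reached at most 0.766 FPKM in any library, a value of Gapdhs. Copies described in other words were not looked for, so these values do not show how shared fragments were counted. The cause of the spread was not tested. Gapdh is widely used as a reference gene in expression assays.

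**Figure D2:**
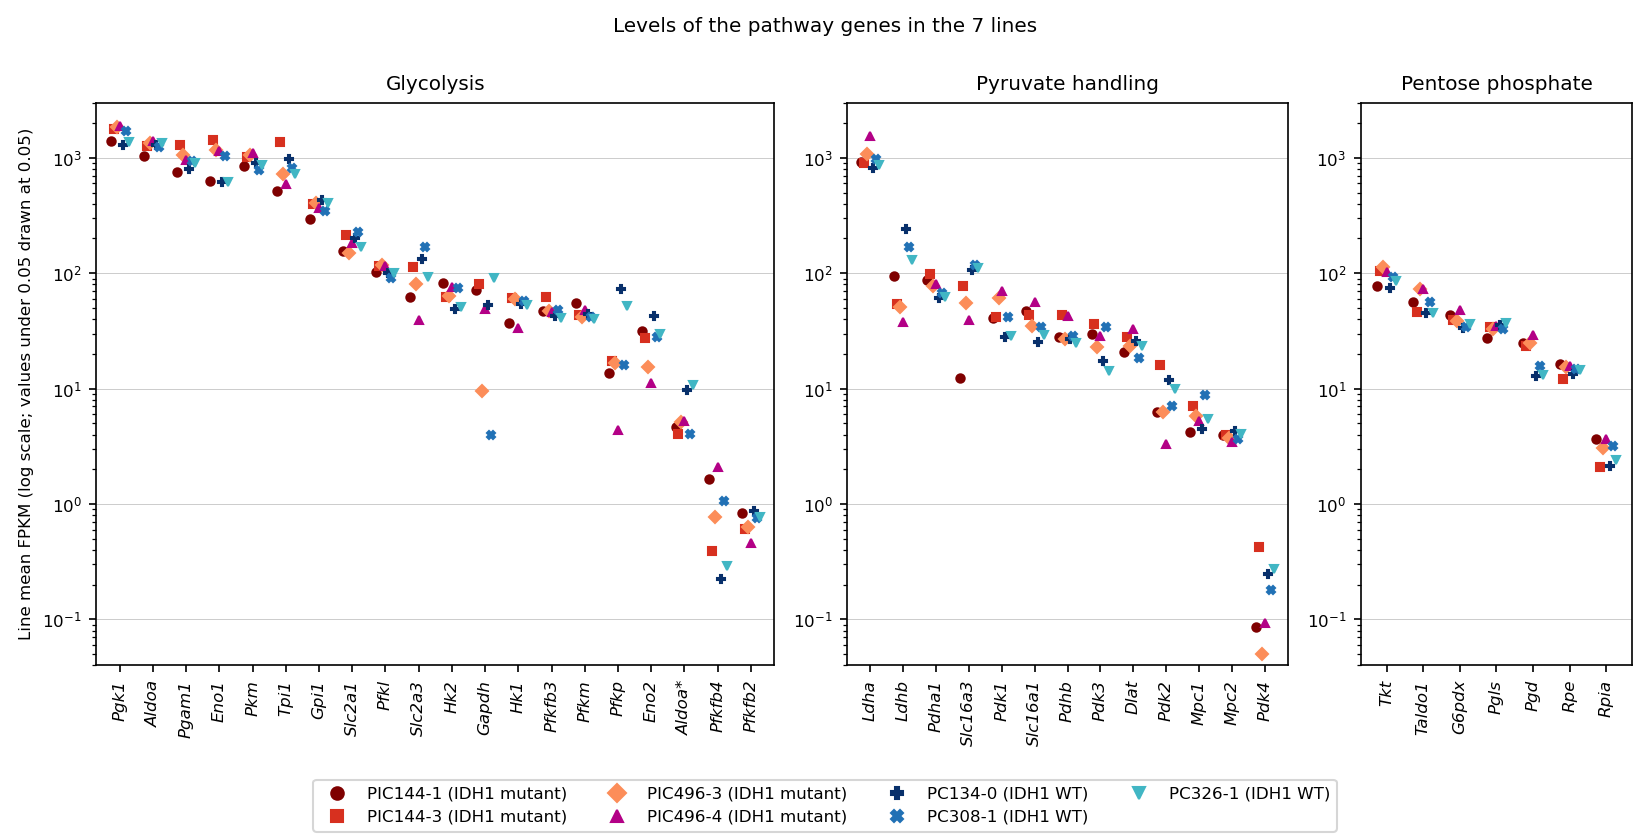
Each point is the mean FPKM of 3 libraries of a line, on a log y axis, for the genes of glycolysis, pyruvate handling and the pentose phosphate pathway in order of level; values under 0.05 are drawn at 0.05. Red to purple symbols are IDH1 mutant and blue symbols IDH1 WT lines, Aldoa* is the separate upstream Aldoa entry, and Gapdh lies at 3.96 to 91.1 FPKM while Tpi1 and Pgk1, which act before and after it, lie at 513 FPKM or more.

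Over the 20 glycolysis entries tested, 10 had a positive and 10 a negative difference, and the median was 0.05. None of them had an unadjusted p under 0.05 on the higher side, and Slc2a3 and Pfkp did on the lower side. The FPKM summed over these entries were 6145, 9362, 8219 and 8055 in PIC144-1, PIC144-3, PIC496-3 and PIC496-4, against 7114, 7616 and 6950 in PC134-0, PC308-1 and PC326-1. The IDH1 mutant lines held both the lowest and the highest sum.

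In pyruvate handling, related genes differed in direction. Lactate dehydrogenase is a tetramer of A and B subunits, and the A form is known to favour lactate formation and the B form lactate use. Ldhb (ENSMUSG00000030246, chr6:142490249-142507957, minus strand, GRCm38) had 94.0, 54.4, 51.4 and 37.5 FPKM in PIC144-1, PIC144-3, PIC496-3 and PIC496-4, against 241, 167.5 and 129.5 FPKM in PC134-0, PC308-1 and PC326-1. All 4 IDH1 mutant lines lay below all 3 IDH1 WT lines, and no library of either genotype reached into the other. The log2 difference was -1.62 (SE 0.331), or 3.08-fold lower, and its 95% interval ran from -2.39 to -0.85. The limma p was 0.00134 before adjustment and 0.201 after it, so Ldhb did not pass.

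Ldha had 928, 903, 1078 and 1555 FPKM in IDH1 mutant lines, against 822, 969.5 and 873 FPKM in IDH1 WT lines. The genotypes overlapped, and the log2 difference of 0.30 had an interval of -0.19 to 0.78. PIC496-4 had the highest Ldha and the lowest Ldhb of the 7 lines. Ldhb made up 9.21%, 5.68%, 4.55% and 2.35% of the lactate dehydrogenase FPKM in IDH1 mutant lines, against 22.7%, 14.7% and 12.9% in the IDH1 WT lines. The mean share was 5.45% ± 2.86 (SD, n = 4) in IDH1 mutant and 16.8% ± 5.18 (SD, n = 3) in IDH1 WT lines, and Ldha was the major gene in every line.

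Lactate crosses the cell membrane through MCT1, encoded by Slc16a1, and MCT4, encoded by Slc16a3, the low-affinity form known for lactate export from glycolytic cells. Slc16a3 (ENSMUSG00000025161, chr11:120948480-120960868, plus strand, GRCm38) had 12.4, 76.8, 54.8 and 39.3 FPKM in PIC144-1, PIC144-3, PIC496-3 and PIC496-4, against 106.5, 118 and 112 FPKM in PC134-0, PC308-1 and PC326-1. The IDH1 WT lines lay close together and above all IDH1 mutant lines, which spread widely. The log2 difference was -1.55 (SE 0.545), with limma p = 0.0226 before and 0.347 after adjustment. Slc16a1 (ENSMUSG00000032902, chr3:104638668-104658462, plus strand, GRCm38) was higher in the IDH1 mutant lines, with 47.1, 43.8, 34.7 and 56.3 FPKM in IDH1 mutant lines, against 25.5, 34.5 and 28.9 FPKM in IDH1 WT lines. PIC496-3 was just above PC308-1, and libraries of these lines overlapped. The log2 difference was 0.60 (SE 0.191), with limma p = 0.0143 before and 0.318 after adjustment.

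Slc16a3 held 20.8%, 63.6%, 61.2% and 41.1% of the summed FPKM of both transporters in PIC144-1, PIC144-3, PIC496-3 and PIC496-4, against 80.6%, 77.3% and 79.4% in PC134-0, PC308-1 and PC326-1. The sum itself was 59.5 to 121 FPKM in IDH1 mutant lines and 132 to 153 FPKM in IDH1 WT lines, with no overlap. Slc16a1 was the major transporter gene in PIC144-1 and PIC496-4 and Slc16a3 in the other 5 lines.

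**Figure D3:**
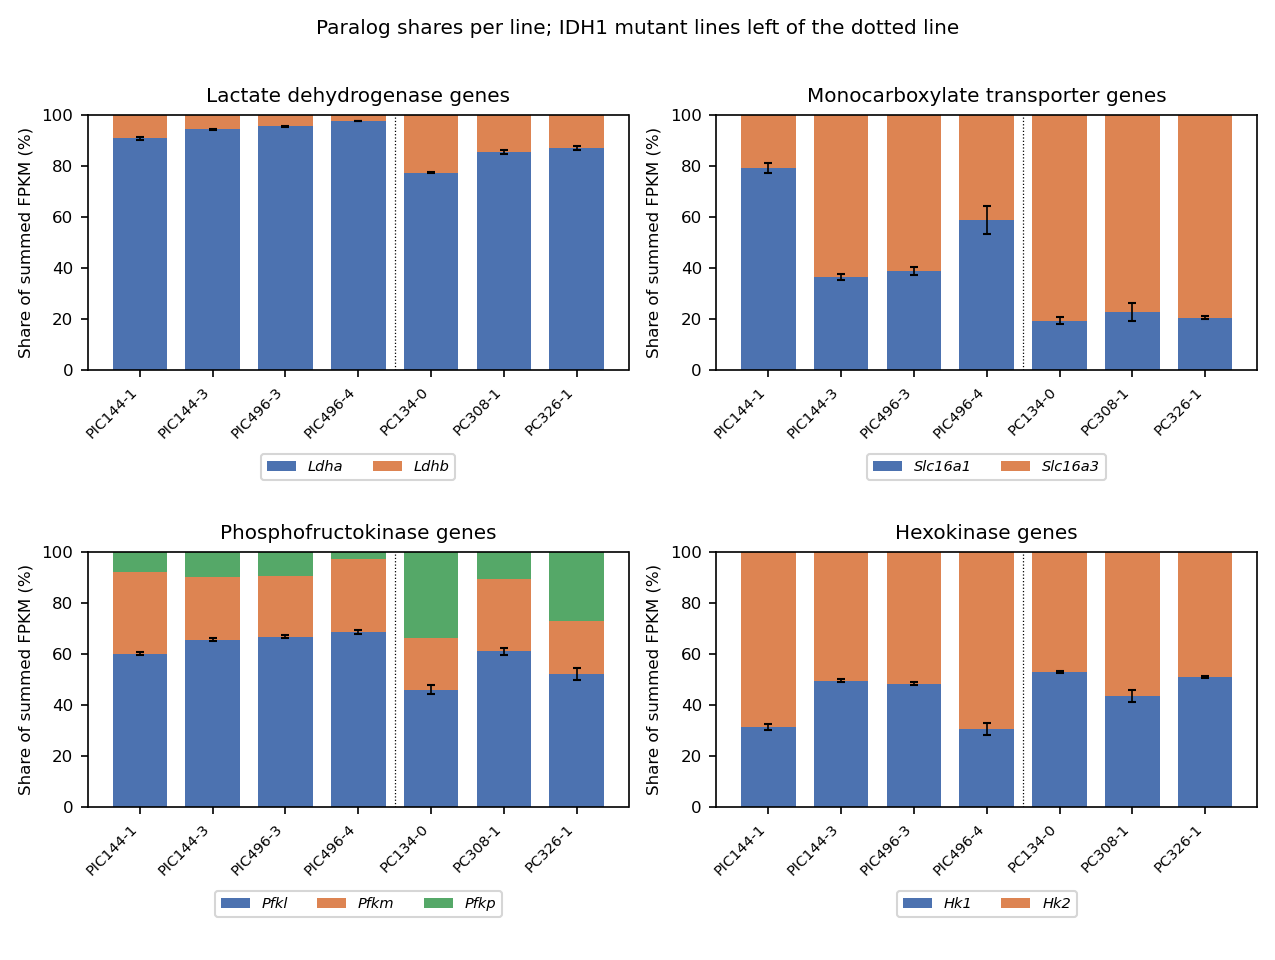
Stacked bars give the share in percent of the summed FPKM of lactate dehydrogenase, monocarboxylate transporter, phosphofructokinase and hexokinase genes in each line, as means of 3 libraries, with error bars of the SD of the lowest segment over libraries. Ldhb reaches 9.21% at most in IDH1 mutant lines and at least 12.9% in IDH1 WT lines, and Slc16a3 63.6% at most and at least 77.3%.

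The promoters of the lactate genes are shown because these 4 genes differ in direction while taking part in the same steps. Each is the 250 bases before the first listed RefSeq start in the GRCm38.p6 build, 5′ to 3′ on the strand of the gene. Capitals mark ACGTG, the core shared by low-oxygen response elements and E-boxes, and GCGTG, the other form of the low-oxygen core, on either strand, where a CACGTG palindrome counts as an ACGTG match on both strands and overlaps itself. Ldhb lies at chr6:142507958-142508207 on the minus strand, Ldha at chr7:46845554-46845803 on the plus strand, Slc16a3 at chr11:120948817-120949066 on the plus strand and Slc16a1 at chr3:104638414-104638663 on the plus strand.
Ldhb: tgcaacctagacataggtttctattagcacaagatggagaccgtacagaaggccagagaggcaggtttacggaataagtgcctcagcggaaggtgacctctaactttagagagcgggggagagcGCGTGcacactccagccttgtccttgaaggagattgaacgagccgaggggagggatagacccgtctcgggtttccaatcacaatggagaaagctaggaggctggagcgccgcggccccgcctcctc
Ldha: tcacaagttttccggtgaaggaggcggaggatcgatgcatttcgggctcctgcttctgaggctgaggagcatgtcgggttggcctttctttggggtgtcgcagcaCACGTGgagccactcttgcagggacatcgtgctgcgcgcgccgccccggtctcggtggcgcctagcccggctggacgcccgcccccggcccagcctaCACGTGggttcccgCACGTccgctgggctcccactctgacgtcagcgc
Slc16a3: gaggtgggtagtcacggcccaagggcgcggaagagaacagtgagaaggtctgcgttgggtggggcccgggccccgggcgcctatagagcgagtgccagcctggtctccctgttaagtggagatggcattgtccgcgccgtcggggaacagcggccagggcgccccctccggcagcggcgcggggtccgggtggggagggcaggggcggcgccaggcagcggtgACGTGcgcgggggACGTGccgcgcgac
Slc16a1: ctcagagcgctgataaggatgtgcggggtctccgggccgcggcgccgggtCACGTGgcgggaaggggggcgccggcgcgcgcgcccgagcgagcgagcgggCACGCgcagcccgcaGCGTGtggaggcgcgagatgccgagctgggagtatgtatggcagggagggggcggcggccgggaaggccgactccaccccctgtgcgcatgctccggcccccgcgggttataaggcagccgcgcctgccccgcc

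The Ldhb window held 0 matches to ACGTG and 1 to GCGTG, and the Ldha window held 5 to ACGTG and 0 to GCGTG. The Slc16a3 window held 2 and 0 and the Slc16a1 window 2 and 2. CG dinucleotides numbered 14 in Ldhb, 25 in Ldha, 29 in Slc16a3 and 37 in Slc16a1. RefSeq windows were found for 38 of the 39 genes, Slc2a3 being the exception. ACGTG was present in 13 of the 38 windows (34.2%) and in 2102 of 9413 windows of tested genes (22.3%), and GCGTG in 60.5% and 47.2%. A match describes letters in the window and not binding, and DNA methylation was not measured.

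The pyruvate dehydrogenase complex turns pyruvate into acetyl-CoA, and its 5 subunit genes tested differed in sign. Pdha1, the E1 alpha subunit of pyruvate dehydrogenase (ENSMUSG00000031299, chrX:160122209-160138413, minus strand, GRCm38), had 87.7, 99.3, 77.2 and 80.9 FPKM in IDH1 mutant lines, against 60.6, 67.8 and 62.5 FPKM in IDH1 WT lines. No library overlapped, and the log2 difference was 0.43 (SE 0.135), with limma p = 0.0130 before and 0.309 after adjustment. Pdhb, the E1 beta subunit, had 28.1, 43.7, 27.0 and 42.9 FPKM in IDH1 mutant lines, against 26.8, 28.5 and 24.8 FPKM in IDH1 WT lines, with overlap and a log2 difference of 0.37. Dlat, the E2 subunit, overlapped with a difference of 0.21. Of the subunit genes outside the 39 genes, Pdhx, the E3-binding protein, differed by -0.20 and Dld, the E3 subunit, by -0.13, both with overlap.

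Pdk1, the pyruvate dehydrogenase kinase known to be induced at low oxygen, had 41.03, 42.1, 61.3 and 70.5 FPKM in PIC144-1, PIC144-3, PIC496-3 and PIC496-4, against 28.1, 42.0 and 28.6 FPKM in PC134-0, PC308-1 and PC326-1. The PIC496 lines were the highest, while PC308-1 lay between the PIC144 lines. The log2 difference was 0.69 (SE 0.247), with limma p = 0.0247 before and 0.351 after adjustment. Pdk3 had 29.6, 36.5, 23.1 and 28.6 FPKM in IDH1 mutant lines, against 17.3, 33.9 and 14.3 FPKM in IDH1 WT lines. Pdk2 had 6.28, 16.1, 6.31 and 3.34 FPKM in IDH1 mutant lines, against 11.9, 7.10 and 9.97 FPKM in IDH1 WT lines. Pdk4, the form known from fasted muscle and liver, was at 0 to 0.424 FPKM in IDH1 mutant and 0.178 to 0.271 FPKM in IDH1 WT lines, with at most 30 fragments in a library.

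Within the kinase family Pdk1 was the major gene in every line, at 44.3% to 68.8% of the summed FPKM in IDH1 mutant and 48.9% to 54.0% in IDH1 WT lines. The sum was 77.0, 95.1, 90.7 and 102.5 FPKM in IDH1 mutant lines, against 57.5, 83.2 and 53.1 FPKM in IDH1 WT lines. Mpc1 and Mpc2 encode the mitochondrial pyruvate carrier. Mpc1 lay at 4.21 to 7.03 FPKM in IDH1 mutant and 4.49 to 8.87 FPKM in IDH1 WT lines, and its log2 difference of -0.12 was 0.14 without PC308-1. Mpc2 varied least of all 40 entries over the 7 lines, from 3.43 to 3.95 FPKM in IDH1 mutant and 3.66 to 4.27 FPKM in IDH1 WT lines. Of the 12 pyruvate handling entries tested, 7 had a positive difference, where 50.8% of all tested genes did, and the median was 0.25.

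The pentose phosphate genes lay higher in the IDH1 mutant lines for 6 of 7 genes, with a median difference of 0.23, where 50.8% of all tested genes lay higher. Only Pgd of these genes had an unadjusted limma p under 0.05. Pgd, 6-phosphogluconate dehydrogenase, the later of the NADPH-forming steps of the pathway (ENSMUSG00000028961, chr4:149149991-149166771, minus strand, GRCm38), had 24.7, 23.5, 24.9 and 28.9 FPKM in PIC144-1, PIC144-3, PIC496-3 and PIC496-4. It had 12.9, 15.7 and 13.2 FPKM in PC134-0, PC308-1 and PC326-1. All libraries of the IDH1 mutant lines, from 22.3 FPKM, lay above all libraries of the IDH1 WT lines, up to 17.3 FPKM. The log2 difference was 0.85 (SE 0.135), or 1.80-fold higher, and its 95% interval ran from 0.54 to 1.16. Its limma p of 2.63e-04 was the lowest of the 39 entries and was 0.111 after adjustment.

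G6pdx, glucose 6-phosphate dehydrogenase, the rate-limiting first NADPH-forming step, had 43.7, 39.1, 38.5 and 48.2 FPKM in IDH1 mutant lines, against 33.4, 34.4 and 35.95 FPKM in IDH1 WT lines. The line values did not overlap, with a log2 difference of 0.28 and an interval of -0.02 to 0.58 (limma p = 0.0601 before and 0.405 after adjustment). Pgls, the lactonase between these enzymes, was the gene with a negative difference, -0.12. In the non-oxidative branch, Tkt (transketolase) had 77.2, 105, 114 and 103 FPKM in IDH1 mutant lines, against 74.6, 92.4 and 85.5 FPKM in IDH1 WT lines. Taldo1 (transaldolase) had 56.5, 45.75, 73.0 and 72.4 FPKM in IDH1 mutant lines, against 45.25, 55.75 and 45.2 FPKM in IDH1 WT lines. Tkt differed by 0.23 and Taldo1 by 0.32, both with overlap and with intervals that include 0. Rpia and Rpe, the pentose phosphate isomerase and epimerase, differed by 0.22 and 0.05 with overlap. The FPKM summed over the pathway were 249, 262, 302 and 306 in the IDH1 mutant lines, against 217, 249 and 233 in the IDH1 WT lines.

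**Figure D4:**
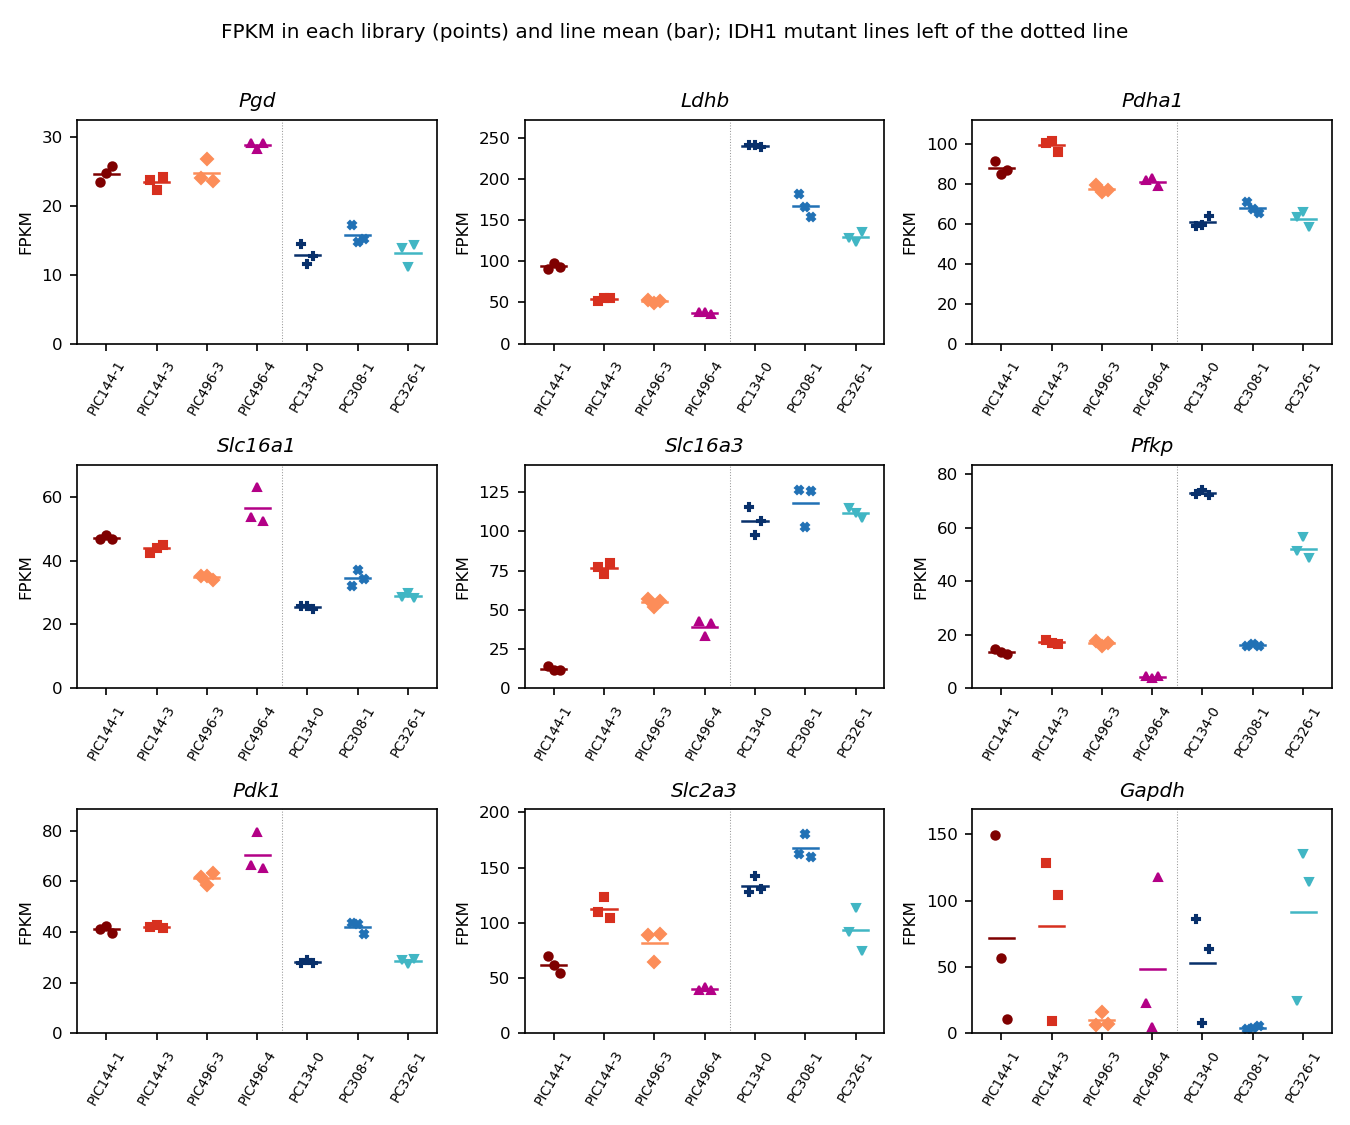
Points are single libraries and bars the means of 3 libraries per line, in FPKM from 0, for the 8 genes with an unadjusted p under 0.05 and for Gapdh. The libraries of Pgd, Ldhb, Pdha1 and Slc16a3 separate by genotype, those of Pfkp separate PC134-0 and PC326-1 from the rest, and those of Gapdh scatter within lines.

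Lines of the same genotype differed from each other in a share of entries close to that of all tested genes. Among the IDH1 mutant lines 9 of 39 entries had an adjusted p under 0.05 in the limma F test over libraries and line means at least 1 log2 unit apart, 23.1% against 25.5% of all tested genes. They were Slc2a3, Pfkp, Pfkfb4, Tpi1, Eno1, Eno2, Ldhb, Slc16a3 and Pdk2. Among the IDH1 WT lines 5 entries did, 12.8% against 12.9%, and these were Pfkp, the other Aldoa entry, Gapdh, Pfkfb4 and Pdk3. Libraries of a line may differ only technically, so these calls compare lines and not animals.

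Over all 7 lines the widest log2 ranges belonged to Gapdh at 4.36, Pfkp at 3.92, Slc16a3 at 3.20 and Ldhb at 2.67. Pdk2, Slc2a3, Eno2 and Pfkfb4 followed with ranges of 1.84 to 2.11. Over all 40 entries, PIC144-3 and PIC496-4 were each the highest line for 10. PC134-0 was the lowest line for 11, PIC496-4 for 8 and PIC144-1 for 7. These counts were not set against those of all tested genes. PC134-0 and PC326-1 were the 2 lowest lines for 13 of the 39 entries (33.3%), where this held for 13.6% of all tested genes. These entries were Hk2, Pfkfb3, Pfkfb4, Pgk1, Eno1, Ldha, Slc16a1, Pdha1, Pdhb, Pdk1, Pdk3, Pgd and Taldo1. They were the 2 highest lines for 4 entries (10.3%), where this held for 12.8% of all tested genes. For Pgd, Pdha1 and Slc16a1 all 3 IDH1 WT lines lay below every IDH1 mutant line, so their place in this count follows partly from the genotype difference. The same held for G6pdx and Pfkl, which are outside this count because PC308-1 was not the highest IDH1 WT line. In place of 8 entries, 3 had an unadjusted p under 0.05 without PC134-0, 5 without PC326-1 and 10 without PC308-1, each with 2 IDH1 WT lines left.

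For the 7 entries without overlap between genotypes and for Pdk1, Pfkp, Eno1, Tpi1 and Hk2, tested genes that start within 2 Mb were set beside them. The 30 neighbours of Pdk1 on chromosome 2 had a median difference of 0.52, close to the 0.69 of Pdk1 itself, with 26 above 0 and 4 below. By line, the median deviation of these neighbours from the mean of the 7 lines was -0.52 in PC134-0 and -0.57 in PC326-1, where Pdk1 had -0.59 and -0.57. In PIC496-4 Pdk1 had 0.72 and its neighbours 0.25. The 37 neighbours of Tpi1 had a median deviation of 0.71 in PIC144-3, where Tpi1 had 0.82. In PIC144-1, where Tpi1 had -0.60, they had 0.00027. The 27 neighbours of Hk2 had 0.35 in PIC144-1, where Hk2 had 0.34, and -0.17 in PIC496-4, where Hk2 had 0.23. The 54 neighbours of Pgd on chromosome 4 had a median of 0.20, with 39 above 0 and 15 below, against 0.85 for Pgd. Eno1, which starts 1.09 Mb from Pgd on chromosome 4, had 46 neighbours with a median of 0.21, against 0.53 for the gene. The windows of Pgd and Eno1 overlap, so their medians rest partly on the same genes.

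The 12 neighbours of Ldhb had a median of -0.23 against -1.62 for the gene, and the 5 neighbours of Pfkp had -0.04 against -1.73. The 69 neighbours of Slc16a3 had a median of 0.14, opposite to its difference of -1.55. The medians were 0.11 for 34 neighbours of Slc16a1, -0.00127 for 53 of Pfkl, -0.02 for 10 of Pdha1 and -0.04 for 49 of G6pdx. Such medians can hide shifts in single lines. The neighbours of Pdha1 deviated by 0.45 in PIC144-1 and -0.37 in PC326-1, where Pdha1 had 0.22 and -0.27. In PIC144-3 they had 0.0023 and Pdha1 0.39. The neighbours of Slc16a1 had 0.45 in PIC144-3, where the gene had 0.22, and -0.14 in PIC496-4, where it had 0.58. Copy number was not measured, and its part in these differences was not tested.

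**Figure D5:**
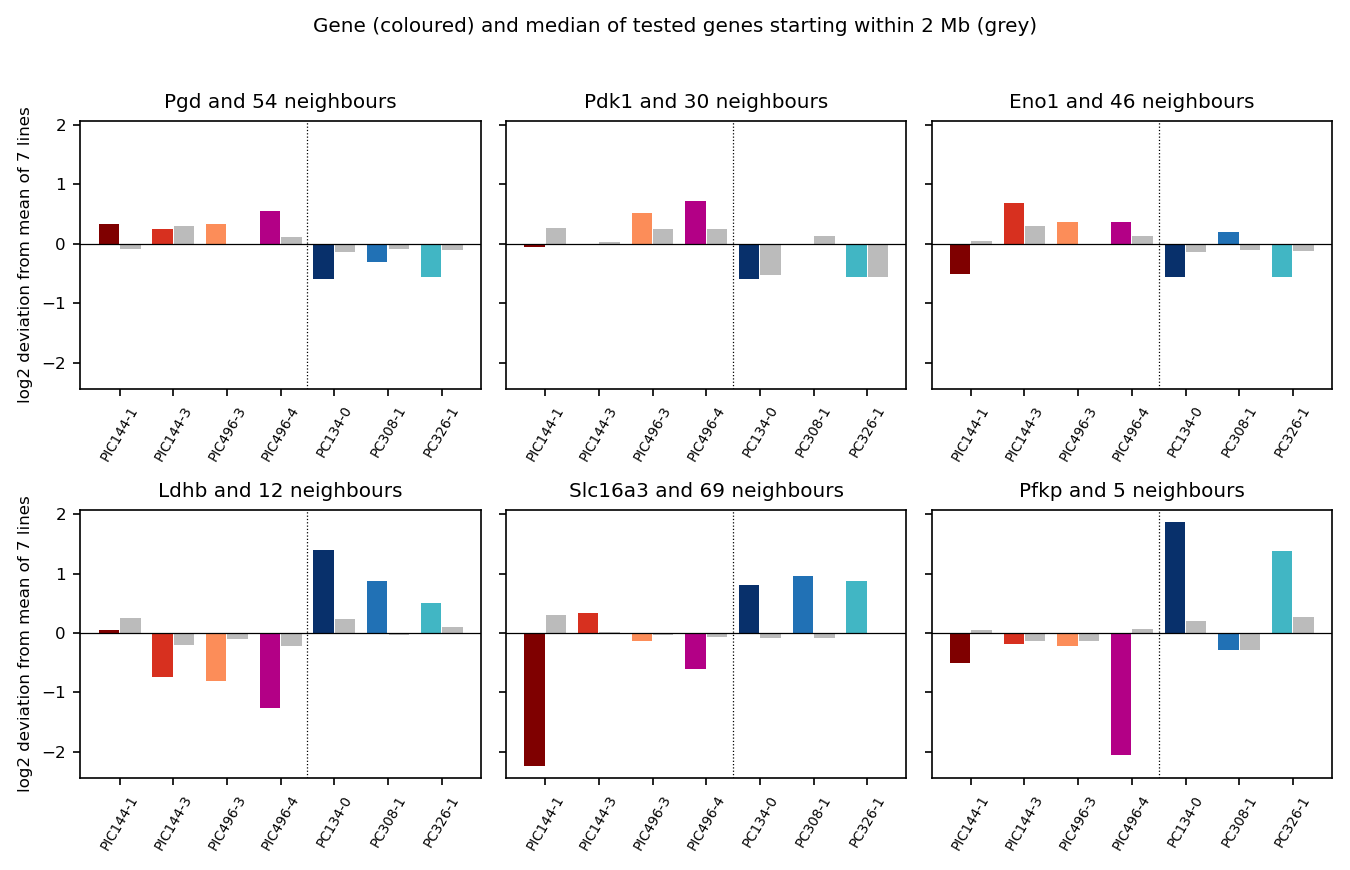
Coloured bars give the deviation of a gene in each line from its mean over the 7 lines, on the log2(FPKM + 0.5) scale, and grey bars the median deviation of tested genes that start within 2 Mb, with IDH1 mutant lines left of the dotted line. For Pdk1 the grey bars in PC134-0 and PC326-1 are about as low as the gene itself. For Slc16a3 the coloured bars are longer than the grey ones in every line, for Ldhb in all but PIC144-1 and for Pfkp in all but PC308-1.

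Pgk1, Pdk3, Pdha1 and G6pdx are X-linked, and the lines differed in Xist and in Y-linked genes. Xist, the RNA that coats the inactive X, was measured at 8.11 and 15.6 FPKM in PIC496-3 and PIC496-4 and under 0.02 FPKM in the other 5 lines. Ddx3y, a Y-linked gene, had 0.580, 1.39, 0 and 0 FPKM in IDH1 mutant lines, against 27.1, 10.2 and 29.1 FPKM in IDH1 WT lines. Of 483 X-linked genes tested, 34 (7.04%) were higher without overlap in the IDH1 mutant lines and 36 (7.45%) were lower, and their median difference was -0.04. The part of the sex chromosomes in the values of Pdha1 and G6pdx was not tested.

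Further genes of the same pathways are given from lists by function. Among all tested genes, 6.09% were higher and 6.70% lower at an unadjusted p under 0.05, and the counts of these short lists are to be read against those shares. Of 19 other glycolysis and gluconeogenesis genes tested, 0 passed the adjusted limma test, 3 were higher and 2 lower at an unadjusted p under 0.05, and the median was 0.14. Eno3, the muscle enolase, had 1.61 ± 0.228 FPKM in IDH1 mutant lines (SD, n = 4), against 4.49 ± 1.04 FPKM in IDH1 WT lines (SD, n = 3), a log2 difference of -1.23 with an adjusted limma p of 0.112. Slc2a12, a glucose transporter, had 0.458 ± 0.301 FPKM in IDH1 mutant and 1.64 ± 0.813 FPKM in IDH1 WT lines. Of 14 other pyruvate and lactate genes tested, 0 passed, 1 was higher and 0 lower at an unadjusted p under 0.05, with a median of 0.15. It was Me2, mitochondrial malic enzyme, at 26.7 ± 10.8 FPKM in IDH1 mutant and 15.8 ± 1.13 FPKM in IDH1 WT lines. Me1, the cytosolic malic enzyme, which also makes NADPH, followed in order of p, at 77.7 ± 34.0 FPKM in IDH1 mutant and 133 ± 36.9 FPKM in IDH1 WT lines. Of 11 other pentose phosphate and NADPH genes tested, 0 passed, 1 was higher and 1 lower at an unadjusted p under 0.05, with a median of 0.32. Nadk, NAD kinase, which makes NADP, had 51.9 ± 5.57 FPKM in IDH1 mutant and 37.8 ± 2.89 FPKM in IDH1 WT lines, and Shpk, sedoheptulokinase, had 0.551 ± 0.111 FPKM in IDH1 mutant and 1.09 ± 0.171 FPKM in IDH1 WT lines.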

How the data were processed

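Messenger RNA of 7 mouse lines was measured in 21 libraries. PolyA RNA was captured for strand-specific paired libraries, per the labels' protocols. Per the submitters' processing notes, HISAT2 and mm39 were used, and what counted the fragments, with which annotation and strand setting, is not given in the sources used here. FPKM of 54532 genes were made and deposited by the authors. The coordinates in the deposited table are those of GRCm38: 53585 genes have the same position in the GENCODE annotation of that build. In the table, 27 symbols turned into dates were restored by gene ID. FPKM times length gave whole fragments for 100% of the low values on which this was checked, within a tolerance of 0.05 fragments, with 15011668 to 21966351 fragments per library.

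Line means were tested as log2(FPKM + 0.5) in R 4.3.3 with limma 3.58.1 (lmFit, eBayes, trend and robust set). The 13379 genes tested had a line mean of at least 0.5 FPKM in at least 3 of 7 lines, and Benjamini-Hochberg adjustment ran over all of them. A fold on this scale understates the difference of low genes. Differences between lines of a genotype came from a limma F test over libraries, with line means at least 1 log2 unit apart. Spread between lines of a genotype is the error behind the genotype p-values. The F test uses the spread between libraries of a line instead. The fit was also run on simulated data, and the outcome of that run is not given here. The genes and lists were chosen with earlier results of these data known. Values were written out for genes past the test, without overlap, with an unadjusted p under 0.05, among the 8 widest ranges over lines, or in a paralog group, and for the 2 genes with the lowest p of each other list. Neighbours of Eno1, Hk2, Pdk1, Pfkp and Tpi1, near-identical copies and sex-chromosome genes were added after their values were seen. Promoters came from RefSeq for GRCm38.p6. Alternatives were other pseudocounts, filters, scalings and eBayes settings, limma voom on recovered fragments, fits over libraries, averaged lines, and leaving out lines or replicates. Figures were drawn with matplotlib 3.10.9.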

Additional observations from a re-analysis of the deposited data

Results flagged for a closer look

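Pfkfb3, the PFKFB enzyme with the strongest kinase activity, had 61.9 FPKM in PIC144-3, apart from the other IDH1 mutant lines at 46.4 to 47.05 FPKM. The gap to the nearest of them was 0.958 of the range of the 4 lines, above the critical value for a group of that size. Chance alone gives about 1 such gap in 20 groups. All 40 entries were searched and this gap was the only one found, which is no more often than that rate. The 3 IDH1 WT lines were too few to be looked at in this way.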

How the results depend on the processing

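The count of entries past the adjusted genotype test was 0 under all alternatives except the fits over 21 libraries with the line as a random effect, which called 7 without and 7 with the replicate block. The entries with an unadjusted limma p under 0.05 numbered 8. They were 14 and 15 in these fits, 4 with PC134-0 and PC326-1 averaged (chosen after seeing the data), and 3 to 11 when a line or replicate was left out, with 3 without PC134-0 and 5 without PC326-1. Ldhb and Pgd kept an unadjusted p under 0.05 in all 23 alternatives, with log2 differences of -1.87 to -1.39 and 0.77 to 0.94, and adjusted p of 8.47e-05 to 0.835 and 0.00597 to 0.835. The other 6 genes lost it in 1 to 6 of them. The difference turned sign when 1 line was left out for Aldoa (-0.10 to 0.043), Gapdh (-0.76 to 1.42), Mpc1 (-0.32 to 0.14) and Tpi1 (-0.46 to 0.016). Counts among lines of a genotype stayed at 8 to 10 for IDH1 mutant and 4 to 6 for IDH1 WT lines, and at 9 and 5 with the replicate block. Over all tested genes, libraries with the same replicate number deviated together little (median correlation 0.01 over 63 pairs, from -0.12 to 0.29). A correlation over all genes cannot show whether single genes share an effect of the replicate number. The causes of these shifts were not tested. Depth limits Pdk4, Pfkfb4, Pfkfb2 and the upstream Aldoa entry most.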

Other observations

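Regulators of these pathways gave values without calls in the adjusted limma test. Among all tested genes, 50.8% had a positive difference, and 6.09% were higher and 6.70% lower at an unadjusted p under 0.05, the shares against which the counts below stand. Of 17 oxygen and redox regulators tested, at an unadjusted p under 0.05 the IDH1 mutant lines were higher in 2 and lower in 0, and the median difference was 0.04. Nfe2l2, which encodes NRF2, the inducer of antioxidant and NADPH genes, had 22.5, 17.0, 16.8 and 18.3 FPKM in PIC144-1, PIC144-3, PIC496-3 and PIC496-4, against 9.08, 12.9 and 8.76 FPKM in PC134-0, PC308-1 and PC326-1. The genotypes did not overlap in Nfe2l2, with a log2 difference of 0.84 (SE 0.180) and an adjusted limma p of 0.201. Myc had 134, 50.2, 58.2 and 271 FPKM in IDH1 mutant lines, against 25.4, 29.5 and 29.7 FPKM in IDH1 WT lines, with an adjusted limma p of 0.292. PIC144-1 and PIC496-4 were the highest lines in Myc.

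Of 9 NRF2 target genes tested outside the 39 genes, 8 had a positive difference, 1 was higher and 0 lower at an unadjusted p under 0.05, and the median was 0.23. Gsr, glutathione reductase, had 32.1 ± 4.09 FPKM in IDH1 mutant lines (SD, n = 4), against 24.0 ± 2.18 FPKM in IDH1 WT lines (SD, n = 3). Srxn1, sulfiredoxin, had 8.99 ± 2.49 FPKM in IDH1 mutant and 6.49 ± 1.92 FPKM in IDH1 WT lines. Of 21 low-oxygen response genes tested outside glycolysis, 1 was higher and 2 lower at an unadjusted p under 0.05, and the median was -0.02. Lox, lysyl oxidase, had 0.537 ± 0.520 FPKM in IDH1 mutant and 4.38 ± 3.07 FPKM in IDH1 WT lines. P4ha2, a collagen prolyl hydroxylase subunit, had 11.2 ± 4.07 FPKM in IDH1 mutant and 6.01 ± 1.79 FPKM in IDH1 WT lines.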
